A study of Mus musculus with 9 samples.

Results

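Fibronectin and 8 matricellular proteins were followed at the RNA level in mouse stromal cells of fat and muscle. The 9 genes Fn1, Tnc, Tnxb, Postn, Sparc, Sparcl1, Spp1, Thbs1 and Thbs2 were taken by name from the 26214 genes of the table, and all 9 were listed. Bulk RNA was sequenced from sorted cells of C57Bl/6 mice (C57Bl/6 J in the study's methods) at Day 1 after an injection into the quadriceps. Adipose stromal cells (ASCs) came from subcutaneous adipose tissue after NaCl injection (3 libraries). Fibro-adipogenic progenitors (FAPs), the mesenchymal progenitors of muscle, came from quadriceps muscle after NaCl injection (2 libraries). The injured FAPs came from quadriceps muscle after Glycerol injection, which damages the muscle (3 libraries). A single library of CD31+CD45+ cells, taken from quadriceps muscle after Glycerol injection, entered no comparison. The mice were young adult males. The study describes its replicates as made from pooled cells of 3 animals and does not say whether each library had its own pool. Before sequencing, ASCs and FAPs were depleted of cells that carry CD45 or CD31 and then selected for Sca-1, in both steps with magnetic beads.

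The libraries held 27349184 to 27481573 reads for ASCs, 24052508 to 24164447 for FAPs, 26698572 to 27028114 for injured FAPs and 13091077 for CD31+CD45+ cells. A normalized value is the number of reads of a gene divided by 1 factor for its library, and 3 reads corresponded to a value of 2.29 to 4.71. The markers of FAPs and ASCs (Pdgfra, Ly6a, Cd34, Thy1, Dcn and Lum) were all above 0 in each of the 8 ASC and FAP libraries. Their summed values were 521209.8, 431549.5 and 496957 in ASCs, 336988 and 320659 in FAPs and 173716, 173133 and 176620.4 in injured FAPs, with Dcn the most abundant. The total values of the libraries also differed, at 30975894 to 36203055 in ASCs, 22733684 to 22871402 in FAPs and 20614745 to 21159811 in injured FAPs. Differences between the marker sums therefore depend in part on the scaling. In the CD31+CD45+ library the same sum was 39592. The markers did not all follow their sum in the comparisons described below. Against FAPs, 3 of the 6 were called lower in injured FAPs (Cd34, Dcn and Lum, beside 27.7% of all genes). Ly6a was called higher, beside 24.9%. Against ASCs, 5 were called lower, beside 25.8%, and Pdgfra was called higher, beside 25.0%. These calls hold for the deposited scaling. When libraries were scaled to equal read totals, the median log2 fold change of all genes against ASCs moved from 0.02 to 0.71. The calls of the markers under that scaling are not given here.

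Fibronectin is a large fibrous glycoprotein of the extracellular matrix that cells bind through integrins. Matricellular proteins are secreted into the matrix and act mainly on how cells attach, move and respond to growth factors, rather than as its scaffold. The tenascins, periostin, the SPARC proteins, osteopontin and the thrombospondins belong to this class.

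The FAP libraries stood apart from the others in the genes they listed at 0. The filter on low values, a mean of 10 or more over the 8 libraries, kept 13601 genes. Both FAP libraries had 0 for 122 of these. For ASCs the same count over all 3 libraries was 12, and for injured FAPs it was 11. Of the 122 genes, 96 had their highest value in the CD31+CD45+ library, as did 3843 of all 13601 genes (28.3%). None of the 9 members was among them, and each member had reads in all 9 libraries. Cd36, a thrombospondin receptor, was 1080.2 in FAP replicate 1 (1136 reads) and 0 in FAP replicate 2. The files do not say how these zeros arose, nor whether values of the FAP libraries were changed before deposit, so every comparison against FAPs rests on the values as listed. The part of these zeros in the results was not tested.

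Across the 3 groups most members differed, and they did not move in the same direction. A gene was called when its adjusted p (limma with Benjamini-Hochberg over the 13601 genes) was under 0.05 and its log2 fold change was beyond 0.58 in either direction. All 9 members passed the filter on low values. ASCs were compared with FAPs to see how the stromal cells of fat and muscle differ without muscle damage. In that comparison 7 of the 9 members were called, where 47.2% of all genes tested were called (6416 genes). Fn1, Postn, Sparc and Thbs2 were higher in ASCs, 4 members against 23.4% of all genes (3183), and Tnc, Sparcl1 and Spp1 were lower, 3 members against 23.8% (3233). The higher call of Sparc ended, and its direction flipped, with quantile normalization (-0.05), while the calls of Sparc (0.29) and Thbs2 (0.14) ended when libraries were scaled to equal read totals. The call of Thbs2 also ended with quantile normalization and with a common 75th percentile. Equal read totals left 5 of the 9 members called (55.6%), beside 58.2% of all genes.

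Injured FAPs were compared with FAPs to see the change 1 day after glycerol. Here 7 of the 9 members were called, beside 52.6% of all genes (7153). Tnc, Postn, Spp1 and Thbs1 rose, 4 members beside 24.9% of all genes (3388), and Tnxb, Sparc and Sparcl1 fell, 3 members beside 27.7% (3765). The call of Sparc ended with quantile normalization (-0.28). Injured FAPs were also compared with ASCs, to set the cells of damaged muscle against those of fat. That gave 8 called members, beside 50.8% of all genes (6909). Tnc, Spp1 and Thbs1 were higher in injured FAPs, 3 members beside 25.0% (3405), and Fn1, Tnxb, Postn, Sparc and Sparcl1 were lower, 5 members beside 25.8% (3504), with Postn turning to 0.28 under quantile normalization and its call ending with equal read totals (-0.07).

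The median log2 fold change of the members was 0.55 for ASCs against FAPs, beside 0.00486 over all genes tested. For injured FAPs against FAPs it was 0.15, beside -0.05. For injured FAPs against ASCs it was -0.77, beside 0.02. Taken without sign, the members' medians in the same order were 1.21, 1.58 and 1.86, beside 0.60, 0.70 and 0.65 over all genes. The 3 comparisons share their libraries pairwise and are not independent of each other. P-values here measure the spread between these libraries, which may not be the spread between animals. Scaling to equal read totals moved the median over all genes to -0.56 for ASCs against FAPs and to 0.71 for injured FAPs against ASCs. Scaling to a common 75th percentile moved the same 2 medians to -0.20 and 0.13. The members' own median for ASCs against FAPs became -0.07 with quantile normalization, 0.34 with a common 75th percentile and -0.02 with equal read totals. For injured FAPs against FAPs it became 0.43, 0.05 and 0.28 in that order, and for injured FAPs against ASCs 0.09, -0.66 and -0.07. In bulk RNA, fewer cells of a type and less RNA per cell cannot be told apart.

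**Figure D1:**
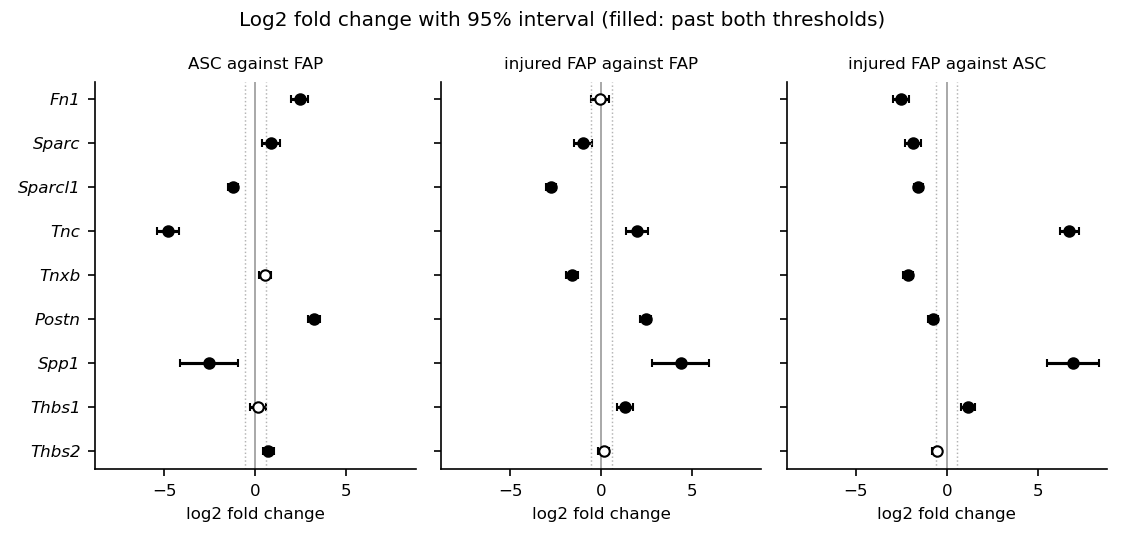
Log2 fold change (horizontal axis) of each of the 9 genes in the 3 comparisons, with points for the limma estimate (filled when called), bars for its 95% interval and dotted lines at 0.58 in either direction. Spp1 and Tnc reached 6.91 and 6.74 in injured FAPs against ASCs, while Sparcl1 stood at -2.77 in injured FAPs against FAPs.

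Fn1 encodes fibronectin itself and lies on chromosome 1 (71585520 to 71653200, minus strand, GRCm38), with 45 merged exons. Its normalized values were 583124, 415413 and 645177 in the 3 ASC libraries. The FAP libraries gave 94114 and 106576, and the injured FAP libraries 99204, 100039.9 and 87044. Every ASC library lay far above every library of muscle, and the FAP and injured FAP values overlapped. Group means were 547905 ± 118862 (SD, n = 3) in ASCs, 100345 ± 8812 (n = 2) in FAPs and 95429 ± 7274 (n = 3) in injured FAPs. The ASC mean was 5.46 times the FAP mean, with a log2 fold change of 2.43 (SE 0.22, limma adjusted p = 7.88e-06). Against ASCs, injured FAPs had -2.50 (SE 0.20, limma adjusted p = 1.85e-06). Quantile normalization took these values to 1.498 and -1.07, and both stayed called. Between injured FAPs and FAPs the value was -0.07 (SE 0.22, limma adjusted p = 0.784), with a 95% interval of -0.56 to 0.41. Its sign there turned positive without FAP replicate 2 (0.02), with quantile normalization (0.43) and with equal read totals (0.06), and a p above the threshold does not show that the values did not differ.

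Fn1 alone made up 1.61%, 1.341% and 1.88% of all reads in the ASC libraries. In FAPs it made up 0.411% and 0.469%, and in injured FAPs 0.469%, 0.483% and 0.422%. Exons of Apol7d, on the opposite strand, share 292 bases with those of Fn1 (2.50% of its exon bases), and the highest value of Apol7d in any library was 4.70.

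**Figure D2:**
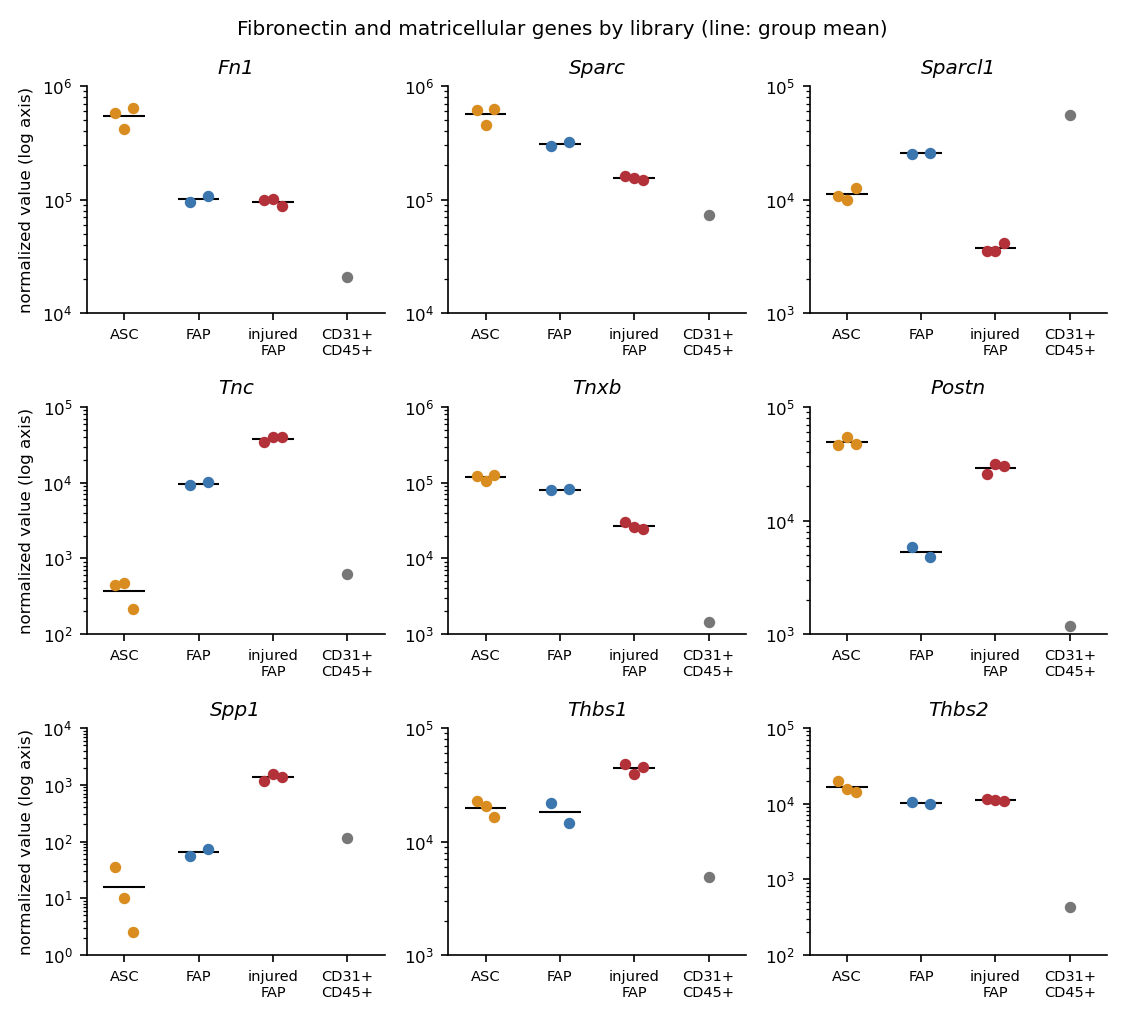
Normalized value (vertical axis, log scale) of each of the 9 genes in every library, with points for libraries and lines for group means in ASCs, FAPs, injured FAPs and the CD31+CD45+ library. Fn1 sits at 415413 to 645177 in ASCs and at 87044 to 106576 in FAPs and injured FAPs.

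Sparc encodes osteonectin, a collagen-binding glycoprotein also called SPARC, on chromosome 11 (55394500 to 55423183, minus strand). It was 613193, 452614 and 629349 in ASCs. FAPs had 295185 and 321044, and injured FAPs 161080.1, 153653 and 147661. The 3 groups formed a descending series without overlap, from ASCs through FAPs to injured FAPs. The means were 565052 ± 97709 (n = 3), 308115 ± 18285 (n = 2) and 154131 ± 6722 (n = 3). ASCs exceeded FAPs by 0.86 (SE 0.22, limma adjusted p = 0.00611), a call that flipped to -0.05 with quantile normalization and ended at 0.86 when only the 2 groups were fitted and at 0.29 with equal read totals. Injured FAPs stood at -0.999 (SE 0.22, limma adjusted p = 0.00229) against FAPs, where the FAP mean was 1.999 times theirs. Against ASCs they stood at -1.86 (SE 0.19, limma adjusted p = 1.38e-05), and quantile normalization took these values to -0.28 and -0.23 and ended both calls. With equal read totals the value against ASCs was -1.16. Sparc made up 1.69%, 1.46% and 1.83% of all reads in ASCs, 1.29% and 1.41% in FAPs, and 0.761%, 0.743% and 0.716% in injured FAPs.

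Sparcl1 encodes a SPARC-like glycoprotein, also named hevin, and lies on chromosome 5 (104079111 to 104113733, minus strand). ASCs had 10765, 9981 and 12544. The values were 25339 and 25628 in FAPs and 3526, 3541 and 4148 in injured FAPs. FAPs were highest and injured FAPs lowest, with no overlap between any 2 groups, an order that Sparc did not share. The means were 11097 ± 1313 (n = 3), 25484 ± 204 (n = 2) and 3738 ± 355 (n = 3). In FAPs the mean was 6.82 times that of injured FAPs, and the log2 fold change of injured FAPs against FAPs was -2.77 (SE 0.12, limma adjusted p = 2.38e-07). ASCs had -1.21 (SE 0.12, limma adjusted p = 1.84e-05) against FAPs, which became -1.87 with quantile normalization. Injured FAPs had -1.57 (SE 0.11, limma adjusted p = 8.51e-07) against ASCs, which became -0.87 with equal read totals. The CD31+CD45+ library held 55754, above all 8 other libraries. Most called markers of endothelial cells also fell from FAPs to injured FAPs. Of the 13, 12 were tested, and 6 were called lower in injured FAPs (Kdr, Flt1, Tie1, Tek, Esam and Egfl7), beside 27.7% of all genes. The 3 called higher, beside 24.9%, were Emcn, Cldn5 and Plvap, whose calls rest on values listed at 0 in both FAP libraries, and Emcn and Cldn5 would not have passed the filter without injured FAPs. Plvap was 382, 332 and 284 in injured FAPs, Emcn 46.3, 79.0 and 51.9 and Cldn5 27.5, 30.2 and 15.3. All 13 genes summed to 7379.8, 5928 and 7762 in ASCs, 7261 and 4934 in FAPs, 2399, 2531 and 2017 in injured FAPs and 383242 in the CD31+CD45+ library. Tek alone made up 81.1%, 81.7% and 86.3% of the ASC sums. Of the 12 tested, 7 were called lower in ASCs than in FAPs, beside 23.8% of all genes. The other direction held 4, beside 23.4%, namely Tek (1.53), Emcn, Cldn5 and Plvap. The calls of the last 3 rest on values listed at 0 in both FAP libraries, and Cldn5 would not have passed the filter without ASCs either. In both FAP libraries Vwf, Emcn, Cldn5 and Plvap were at 0, Pecam1 was also at 0 in FAP replicate 2, and Tek was the most abundant (2120.5 and 1890.0), while Cdh5 was in injured FAPs. Markers of smooth muscle and pericytes (8 genes, none at 0), of which 7 were called lower in injured FAPs than in FAPs (27.7% of all genes were) and Cnn1, 1 of the 7, passed the filter only through FAPs, summed to 5144, 3349 and 4141 in ASCs, 18981 and 16561 in FAPs, 9091, 8659.7 and 9306 in injured FAPs and 71140.4 in the CD31+CD45+ library. Rgs5 was their most abundant gene in FAPs, and Cspg4 in injured FAPs. Cells that carry CD31 had been depleted, and the part of endothelial cells and pericytes in the result was not tested.

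The promoter table from RefSeq (GRCm38.p6) gave the 250 bases before a RefSeq start for 6 of the 9 members. Tnc, Postn and Spp1 had 2 such windows, of which the 1 nearest to the GENCODE start was used. Fn1, Sparcl1 and Thbs1 had no entry. The 4 windows printed here belong to Tnc, Postn and Spp1, which rose in injured FAPs, and to Tnxb, which fell. Each was searched on both strands for 4 motifs, with their share of the 32851 windows of the same length. TATAAA, the core of the TATA box, occurs in 12.4% of them. CCAAT, the letters of the CCAAT box, occurs in 33.8%. TGANTCA, the letters bound by AP-1, occurs in 6.75%. GGAATG, the letters bound by TEAD factors, occurs in 12.6%. The motifs were chosen with the sequences at hand, and a match is a description of the letters only. The windows of Sparc and Thbs2 are not shown, and that of Sparc belongs to a start 3103 bases inside the gene as GENCODE places it, so it does not cover the bases before the outermost start. It held none of the 4 motifs, while Thbs2 held the TATA letters on the other strand and the letters of the CCAAT box on each strand.

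Tnc encodes tenascin-C, a large hexameric glycoprotein of developing and healing tissue, and lies on chromosome 4 (63959785 to 64047015, minus strand). The window at chr4:64047016-64047265 (minus strand) is printed 5′ to 3′, with capitals for TATAAA, which begins 126 bases before the start. No other motif searched was found in it.
Tnc: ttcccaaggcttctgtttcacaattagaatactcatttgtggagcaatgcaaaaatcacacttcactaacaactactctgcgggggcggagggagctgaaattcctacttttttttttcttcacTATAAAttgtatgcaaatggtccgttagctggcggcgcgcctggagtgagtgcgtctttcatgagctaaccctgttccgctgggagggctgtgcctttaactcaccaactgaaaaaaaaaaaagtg
Tnc was 440.0, 470.0 and 215 in ASCs. FAPs had 9424 and 10069, and injured FAPs 34782, 39569 and 39751. ASCs were lowest, FAPs stood in between and injured FAPs were highest, and no group overlapped another. The means were 375 ± 139.6 (n = 3), 9747 ± 456 (n = 2) and 38034 ± 2818 (n = 3). From FAPs to injured FAPs the mean rose 3.90-fold, and the log2 fold change was 1.96 (SE 0.27, limma adjusted p = 0.000120). The FAP mean was 26.0 times the ASC mean, so that ASCs against FAPs gave -4.78 (SE 0.27, limma adjusted p = 4.20e-07). Injured FAPs against ASCs gave 6.74 (SE 0.24, limma adjusted p = 1.88e-08).

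Markers of tendon cells followed the order of Tnc only in part. Their 5 genes (Scx, Tnmd, Mkx, Fmod and Kera, none at 0) summed to 2396, 1851 and 1593 in ASCs, where Tnc was lowest. In FAPs the sum was 130993 and 159032, and in injured FAPs it was 47506, 49345 and 39043, with Fmod the most abundant gene, and 4 of the 5 were called lower in injured FAPs than in FAPs, where 27.7% of all genes were. The sum was thus highest in FAPs, while Tnc was highest in injured FAPs. The CD31+CD45+ library held a sum of 9865 and a Tnc value of 614. Their part in the result was not tested.

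Tnxb encodes tenascin-X, a tenascin of mature connective tissue that associates with collagen fibrils, on chromosome 17 (34670535 to 34719815, plus strand). Its window at chr17:34670285-34670534 (plus strand) has TGAGTCA, a form of TGANTCA, in capitals from 55 to 49 bases before the start.
Tnxb: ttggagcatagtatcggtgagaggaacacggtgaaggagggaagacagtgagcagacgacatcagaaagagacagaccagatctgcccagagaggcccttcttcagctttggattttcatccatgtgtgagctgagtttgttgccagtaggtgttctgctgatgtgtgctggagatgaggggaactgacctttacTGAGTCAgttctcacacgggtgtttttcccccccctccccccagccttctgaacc
The values of Tnxb were 121633, 106078 and 127426 in ASCs. They were 79247 and 81942 in FAPs and 30501, 26223 and 24373 in injured FAPs. Tnxb ran opposite to Tnc, with ASCs highest, injured FAPs lowest and no overlap. The means were 118379 ± 11039.7 (n = 3), 80594 ± 1906 (n = 2) and 27032 ± 3143 (n = 3). Relative to FAPs, Tnxb in injured FAPs fell to a log2 fold change of -1.58 (SE 0.15, limma adjusted p = 9.38e-06), and the FAP mean was 2.98 times theirs. Relative to ASCs it was -2.13 (SE 0.13, limma adjusted p = 4.19e-07), which became -1.14 with quantile normalization and stayed called. ASCs against FAPs gave 0.55 (SE 0.15, limma adjusted p = 0.00905), under the fold threshold and so not called. That value was called without ASC replicate 2 (0.63), was 0.34 with a common 75th percentile and turned negative with quantile normalization (-0.07) and equal read totals (-0.02).

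Postn encodes periostin, which binds collagen and tenascin-C, and lies on chromosome 3 (54361109 to 54391037, plus strand). In its window at chr3:54360857-54361106 (plus strand) the capitals mark TATAAA, from 26 to 21 bases before the start.
Postn: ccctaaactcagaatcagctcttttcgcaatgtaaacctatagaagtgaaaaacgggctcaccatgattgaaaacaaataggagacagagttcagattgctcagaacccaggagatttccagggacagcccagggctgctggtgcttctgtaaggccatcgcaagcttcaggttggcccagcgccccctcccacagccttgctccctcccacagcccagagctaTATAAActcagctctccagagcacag
Postn values were 46471, 54356 and 47639 in ASCs. FAPs showed 5882 and 4752, and injured FAPs 25634, 31209 and 30355. FAPs were lowest, injured FAPs in between and ASCs highest, without overlap. The means were 49489 ± 4256 (n = 3), 5317 ± 799 (n = 2) and 29066 ± 3003 (n = 3). The mean of injured FAPs was 5.47 times that of FAPs, a log2 fold change of 2.45 (SE 0.14, limma adjusted p = 6.06e-07). In ASCs the mean was 9.31 times that of FAPs, with 3.22 (SE 0.14, limma adjusted p = 9.94e-08). Injured FAPs against ASCs gave -0.77 (SE 0.13, limma adjusted p = 0.000344), which turned to 0.28 with quantile normalization and lost its call with equal read totals (-0.07).

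Spp1 encodes osteopontin, an acidic glycoprotein that cells bind through integrins and CD44. It lies on chromosome 5 (104435118 to 104441050, plus strand), the same chromosome as Sparcl1, which moved in the opposite direction after injury. Capitals in its window at chr5:104434861-104435110 (plus strand) mark TATAAA, 211 to 206 bases before the start, and the letters of the CCAAT box on the other strand, ATTGG, 46 to 42 bases before it.
Spp1: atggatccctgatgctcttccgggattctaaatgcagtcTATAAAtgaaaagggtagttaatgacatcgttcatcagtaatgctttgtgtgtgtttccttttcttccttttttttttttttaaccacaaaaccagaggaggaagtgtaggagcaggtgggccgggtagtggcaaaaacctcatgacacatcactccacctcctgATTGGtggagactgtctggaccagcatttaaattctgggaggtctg
The values of Spp1 were 35.6, 10.2 and 2.51 in ASCs. FAPs had 56.1 and 75.3, and injured FAPs 1186, 1545 and 1367. Every injured FAP library lay above every other library, and every ASC library lay below both FAP libraries. The means were 16.1 ± 17.3 (n = 3), 65.7 ± 13.5 (n = 2) and 1366 ± 179 (n = 3). The injured FAP libraries held 5298 reads of Spp1 in total, the FAP libraries 139 and the ASC libraries 38. With the reads of each group divided by its summed library factors, the ratio of injured FAPs to FAPs was 20.8 (95% counting interval 17.6 to 24.8), and to ASCs it was 87.7 (63.8 to 124.1). Intervals and floors of this kind cover counting error only.

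On the log2 scale Spp1 rose in injured FAPs against FAPs by 4.36 (SE 0.71, limma adjusted p = 0.000378). Against ASCs the value was 6.91 (SE 0.64, limma adjusted p = 5.87e-06), ranging from 6.07 without ASC replicate 3 to 7.76 without ASC replicate 1. The 1 added to each value before the log draws in fold changes of genes with low values. The limma value also averages the logs of uneven ASC values (35.6, 10.2 and 2.51), so it is not a lower limit of the change. By group means the ratio of injured FAPs to ASCs was 84.9. ASCs against FAPs gave -2.55 (SE 0.71, limma adjusted p = 0.0106). This last value ranged from -3.40 without ASC replicate 1 to -1.71 without ASC replicate 3, and it was no longer called without FAP replicate 2 (-2.34). The exons of Gm42793, on the same strand, share 309 bases with those of Spp1 (18.8% of its exon bases), and that gene was not listed in the table.

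The summed markers of leukocytes were also higher in injured FAPs than in FAPs, where most were listed at 0. Their 7 genes summed to 40.8, 31.7 and 16.3 in ASCs, 5.71 and 8.47 in FAPs, 224, 1336 and 214 in injured FAPs and 7232 in the CD31+CD45+ library. In both FAP libraries 6 of the 7 were at 0, Ptprc among them. All 6 tested genes of this list passed the filter only through injured FAPs. The 10 macrophage markers summed to 447, 402 and 388 in ASCs, 264 and 491 in FAPs, 537, 2385 and 455 in injured FAPs and 22297 in the CD31+CD45+ library. In both FAP libraries 8 of the 10 were at 0, and Cd68 was the most abundant (253.9 and 477). Of the 9 macrophage markers tested, 6 passed the filter only through injured FAPs. The second injured FAP library had the highest sums of the 8 libraries for both lists, with Laptm5 at 426 and Lyz2 at 725. Spp1 was 1186, 1545 and 1367 in the 3 injured FAP libraries and rose by 4.27 against FAPs without the second. The CD31+CD45+ library held an Spp1 value of 115 from 73 reads (95% Poisson interval 89.8 to 144.1), under every injured FAP library. Endothelial markers summed to 383242 in that library and leukocyte markers to 7232, so its Spp1 value cannot be assigned to leukocytes or macrophages. Cells that carry CD45 had been depleted from the ASC and FAP libraries, and the part of these cell types in the result was not tested.

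Thbs1 encodes thrombospondin-1, a trimeric glycoprotein of platelets and matrix that can activate TGF-beta, on chromosome 2 (118111876 to 118127133, plus strand). Its values were 22540.0, 20726 and 16511 in ASCs. FAPs had 22034 and 14418, and injured FAPs 48504, 39425 and 45542. Injured FAPs lay above all other libraries, while the ASC and FAP values overlapped. The means were 19925 ± 3093 (n = 3), 18226 ± 5386 (n = 2) and 44491 ± 4630.1 (n = 3). Injured FAPs reached 2.44 times the FAP mean, a log2 fold change of 1.31 (SE 0.20, limma adjusted p = 0.000200), and it was 1.01 without FAP replicate 2. They reached 2.23 times the ASC mean, with 1.17 (SE 0.18, limma adjusted p = 0.000187), a value that became 2.16 with quantile normalization and 1.86 with equal read totals. The 95% interval of ASCs against FAPs ran over 0, at -0.29 to 0.58. Its sign turned negative without FAP replicate 2 (-0.16), with quantile normalization (-0.57), with a common 75th percentile (-0.06) and with equal read totals (-0.42). Markers of platelets (7 genes) summed to 656, 848 and 692 in ASCs, 418 and 565 in FAPs, 361, 539 and 354 in injured FAPs and 695 in the CD31+CD45+ library. Itga2b was the most abundant of them in the ASC and FAP libraries. Of 4 tested, Itga2b and Gp1bb were called lower in injured FAPs than in FAPs, beside 27.7% of all genes, and Pf4 and Ppbp were called higher, beside 24.9%, although the last 2 passed the filter only through injured FAPs. Pf4 and Ppbp were at 0 in both FAP libraries, and in injured FAPs Pf4 was 33.7, 164 and 33.6 and Ppbp 22.0, 76.7 and 25.9. Their part in the result was not tested.

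Thbs2 encodes thrombospondin-2, a close relative of thrombospondin-1 that is made by fibroblasts, on chromosome 17 (14665500 to 14694235, minus strand). It was 19671, 15839.5 and 14474 in ASCs. FAPs had 10551 and 9752, and injured FAPs 11455, 11274 and 10956. ASCs lay above both groups of muscle, and injured FAPs lay slightly above FAPs. The means were 16662 ± 2694 (n = 3), 10152 ± 565 (n = 2) and 11228 ± 252 (n = 3). ASCs against FAPs gave 0.70 (SE 0.13, limma adjusted p = 0.00105), a call that ended with quantile normalization (0.000375), a common 75th percentile (0.49), equal read totals (0.14) and without ASC replicate 1 (0.578). For injured FAPs against FAPs the value was 0.15 (SE 0.13, limma adjusted p = 0.345), not called, and it lay between 0.05 (a common 75th percentile) and 0.28 (equal read totals). Injured FAPs against ASCs gave -0.56 (SE 0.12, limma adjusted p = 0.00178), not called for its size. That value was called without ASC replicate 2 (-0.59) or replicate 3 (-0.65) and turned positive with quantile normalization (0.09) and equal read totals (0.14). As a share of all reads, Thbs2 was 0.0543%, 0.0511% and 0.0421% in ASCs, 0.0461% and 0.0429% in FAPs, and 0.0541%, 0.0545% and 0.0531% in injured FAPs.

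To compare members with each other, values were divided by the merged exon length in kilobases. Sparc was the most abundant member in all 3 groups, at 149169 ± 25794 per kb in ASCs, 81339.6 ± 4827 in FAPs and 40689 ± 1775 in injured FAPs. In ASCs Fn1 followed at 46889.6 ± 10172, then Tnxb at 9696 ± 904 and Postn at 5687 ± 489. Sparcl1 (3778 ± 447) and Thbs1 (3281 ± 509) came next and did not differ beyond their spread. Thbs2 (2379 ± 385), Tnc (48.2 ± 17.96) and Spp1 (9.76 ± 10.5) closed the order.

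FAPs ordered the members differently after Sparc. Sparcl1 (8677 ± 69.5 per kb) and Fn1 (8587 ± 754) did not differ beyond their spread, and Tnxb followed at 6601 ± 156. Then came Thbs1 at 3001 ± 887, Thbs2 at 1449.6 ± 80.7, Tnc at 1254 ± 58.7, Postn at 611 ± 91.8 and Spp1 at 39.9 ± 8.22. In injured FAPs Fn1 (8167 ± 622) and Thbs1 (7326 ± 762) came after Sparc and overlapped. Tnc at 4894 ± 363, Postn at 3340.2 ± 345 and Tnxb at 2214 ± 257 followed. Thbs2 (1603 ± 36.02), Sparcl1 (1273 ± 121) and Spp1 (829 ± 109) were the lowest. By group means Sparcl1 thus held place 2 in FAPs and place 8 in injured FAPs, while Tnc held places 7 and 4 and Postn places 8 and 5. Place 2 in FAPs was not apart from that of Fn1, which lay above Sparcl1 in FAP replicate 2 (9121 and 8726 per kb).

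Summed over the 9 genes, the level per kb was 220938 in ASCs (179112 to 246354), 111561 in FAPs (108157 to 114965) and 70335 in injured FAPs (68335 to 72476). The members together made up 3.91% ± 0.435 (SD, n = 3) of all reads in ASCs, 2.45% ± 0.111 (n = 2) in FAPs and 1.94% ± 0.0389 (n = 3) in injured FAPs. Fn1 and Sparc supplied 88.5% ± 1.75 of the summed level per kb in ASCs, 80.6% ± 1.53 in FAPs and 69.4% ± 1.31 in injured FAPs. The share of Thbs1 was 1.52% in ASCs, 2.71% in FAPs and 10.4% in injured FAPs. Tnc went from 0.0229% in ASCs and 1.12% in FAPs to 6.97% in injured FAPs. For Postn the shares were 2.65%, 0.550% and 4.76% in the same order, and for Sparcl1 they were 1.73%, 7.78% and 1.81%. Spp1 supplied 0.00439%, 0.0356% and 1.18%.

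**Figure D3:**
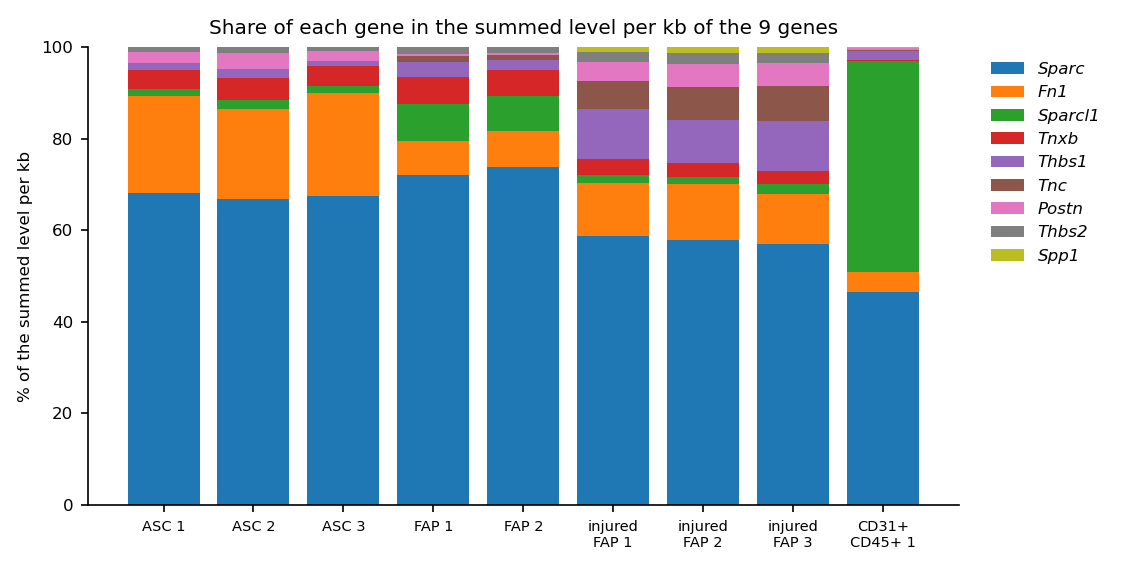
Share of each member in the summed level per kb of the 9 genes (percent, vertical axis), as stacked bars for each library. Fn1 and Sparc together fall from 88.5% in ASCs to 69.4% in injured FAPs, while Thbs1 reaches 10.4% and Tnc 6.97% there.

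Relatives of the members were examined as a list of 22 genes from the same or related families, of which 14 passed the filter. Tnn, Tnr, Spock1, Ibsp, Dmp1, Mepe, Dspp and Ccn6 did not. In ASCs against FAPs 2 of the 14 were higher and 8 lower, beside 23.4% and 23.8% of all genes, with a median log2 fold change of -0.84. Of all 13601 genes, 1168 would not have passed the filter without the libraries of 1 group. Spock3 was 1 of these, through ASCs, and without such genes 1 of 13 relatives was higher and 8 lower, beside 23.2% and 23.0% of the 12433 genes left. Spock3 (2.76, SE 0.43, limma adjusted p = 0.000308) and Fstl1 (1.07, SE 0.14, limma adjusted p = 8.82e-05) were higher in ASCs, and the call of Fstl1 ended with quantile normalization (0.27) and equal read totals (0.50). The largest falls among these relatives were those of Thbs4 (-7.16, SE 0.11, limma adjusted p = 1.82e-10), Comp (-6.13, SE 0.21, limma adjusted p = 2.71e-08) and Ccn2 (-3.45, SE 0.17, limma adjusted p = 1.42e-07). Thbs4 and Comp are thrombospondins of tendon and cartilage, and Ccn2 is connective tissue growth factor. Thbs4 was 859, 777 and 719 in ASCs, 115741 and 109172 in FAPs and 144210.0, 145137 and 139812 in injured FAPs, so the thrombospondins differed among themselves in where they were high.

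In injured FAPs against FAPs 1 relative rose and 7 fell, beside 24.9% and 27.7% of all genes, with a median of -0.74. The 8 called of 14 (57.1%) were near the 52.6% called over all genes. The single rise was that of Ccn4 (1.51, SE 0.30, limma adjusted p = 0.00139), a CCN protein first known as Wisp1. Spock2 (-3.46, SE 0.17, limma adjusted p = 2.89e-07), Ccn3 (-3.07, SE 0.14, limma adjusted p = 2.39e-07) and Comp (-1.53, SE 0.21, limma adjusted p = 0.000126) fell the most. In injured FAPs against ASCs 4 were higher and 4 lower, again 57.1%, near the 50.8% over all genes, with a median of -0.24. Thbs4 (7.51, SE 0.10, limma adjusted p = 3.64e-11), Comp (4.597, SE 0.19, limma adjusted p = 3.49e-08) and Ccn2 (3.65, SE 0.15, limma adjusted p = 3.22e-08) led the former. The largest falls were those of Spock2 (-2.84, SE 0.15, limma adjusted p = 1.30e-07), Thbs3 (-1.62, SE 0.11, limma adjusted p = 5.97e-07), at -0.93 with equal read totals, and Spock3 (-3.36, SE 0.38, limma adjusted p = 2.53e-05), which passed the filter only through ASCs. Without Spock3, 4 of 13 relatives were higher and 3 lower, beside 24.4% and 25.4% of the 12433 genes.

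Receptors that bind the members (integrin subunits, syndecans, Cd36, Cd44, Cd47, Lrp1 and Stab1) made a list of 19 genes, of which 18 were tested and Itgb6 was not. In ASCs against FAPs 8 were higher and 4 lower, beside 23.4% and 23.8% of all genes, with a median of 0.59, or 0.39 with the 2 genes listed at 0 in FAPs set to the floor of 3 reads per library. Those 2 genes were Stab1, a scavenger receptor that takes up SPARC, and Itga4, an integrin subunit that binds fibronectin and osteopontin. Stab1 was 228, 181 and 174 in ASCs, listed at 0 in both FAP libraries, and 64.3, 203 and 64.1 in injured FAPs. Itga4 was 1.32, 5.66 and 1.26 in ASCs (1 to 5 reads), listed at 0 in both FAP libraries, and 28.2, 39.5 and 25.9 in injured FAPs, and its call as higher in ASCs ended under 10 of 19 other settings. Itga4 passed the filter on low values only through injured FAPs. Without it 7 of 17 receptors were higher and 4 lower in ASCs, beside 23.2% and 23.0% of the 12433 genes. With equal read totals 9 of the 18 were called, beside 58.2% of all genes. In the CD31+CD45+ library Stab1 was 8473 and Itga4 523. Among injured FAPs both were highest in the second library, which also had the highest leukocyte and macrophage sums, and the part of those cells was not tested. Cd44, a receptor of osteopontin and hyaluronan, was higher in ASCs (1.89, SE 0.24, limma adjusted p = 8.70e-05, or 1.25 with quantile normalization). Itgb8 was lower, at 1.32, 3.40 and 2.51 in ASCs and 82.7 and 77.1 in FAPs, as were Sdc3 (-3.41, SE 0.48, limma adjusted p = 0.000165) and Itga8 (-2.44, SE 0.19, limma adjusted p = 3.52e-06).

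In injured FAPs against FAPs 8 receptors were called higher and 4 lower, beside 24.9% and 27.7% of all genes, with a median of 0.67. Without Itga4, which passed the filter only through injured FAPs, they were 7 and 4 of 17, beside 24.9% and 27.3% of the 12433 genes. The 3 with the largest rises were Stab1 and Itga4, whose calls rest on values listed at 0 in both FAP libraries, and Cd44. Cd44 rose (2.42, SE 0.24, limma adjusted p = 1.31e-05), while Itga8 (-1.81, SE 0.19, limma adjusted p = 2.06e-05), Itgb5 (-0.97, SE 0.09, limma adjusted p = 9.75e-06) and Itgb3 (-0.62, SE 0.13, limma adjusted p = 0.00201) fell, and the call of Itgb3 ended with equal read totals (-0.49), without injured FAP replicate 2 (-0.51) and with edgeR (-0.57). In injured FAPs against ASCs 6 were higher and 5 lower, beside 25.0% and 25.8% of all genes, with a median of 0.09, or 5 higher and 5 lower of 17 without Itga4, beside 24.4% and 25.4% of the 12433 genes. Itgb8 was higher there, at 59.6, 66.6 and 62.5, and so was Sdc3 (4.14, SE 0.43, limma adjusted p = 1.32e-05), and Itga4 was called higher after passing the filter through injured FAPs alone. Among called receptors the largest falls were those of Itgb3 (-1.30, SE 0.12, limma adjusted p = 5.23e-06), Stab1 (-1.03, SE 0.41, limma adjusted p = 0.0475) and Itga9 (-0.90, SE 0.14, limma adjusted p = 0.000219). With equal read totals Itgb3 was -0.61 and the last 2 calls ended (-0.33 and -0.20). The call of Stab1 ended under 15 of 20 other settings, and its value was -1.57 without injured FAP replicate 2. Cd36 was not called, at 669, 882 and 623 in ASCs and 137, 243 and 135 in injured FAPs, in a fit whose spread includes its FAP values of 1080.2 and 0.

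The third list held 13 genes of fibronectin assembly and cell-matrix adhesion, all of them tested. In ASCs against FAPs Pxn (1.344, SE 0.13, limma adjusted p = 1.34e-05) and Zyx (0.93, SE 0.16, limma adjusted p = 0.000532) were higher and Tns3 (-2.09, SE 0.10, limma adjusted p = 1.43e-07) was lower, with a median of -0.19. These 3 of 13 (23.1%) lay below the 47.2% called over all genes. Quantile normalization and equal read totals ended the call of Zyx (0.26 and 0.36) and took Pxn to 0.70 and 0.78. The 3 called genes became 8 with quantile normalization (61.5%, beside 44.5% of all genes), 6 with a common 75th percentile (46.2%, beside 48.5%) and 9 with equal read totals (69.2%, beside 58.2%), so the list lay below or above all genes depending on the scaling. In injured FAPs against FAPs Tns3 (1.24, SE 0.10, limma adjusted p = 3.58e-06) and Lims1 (1.06, SE 0.15, limma adjusted p = 0.000123) rose, and Tns2 (-1.93, SE 0.13, limma adjusted p = 1.14e-06) and Tns1 (-1.60, SE 0.12, limma adjusted p = 2.65e-06) fell, with a median of 0.20, so that 4 of 13 were called (30.8%) where 52.6% of all genes were. The tensins, which link integrins to actin in fibrillar adhesions, therefore moved both ways. In injured FAPs against ASCs Tns3 (3.33, SE 0.09, limma adjusted p = 3.58e-09) and Lims1 (1.25, SE 0.13, limma adjusted p = 1.46e-05) were higher. Tns1 (-1.46, SE 0.11, limma adjusted p = 1.43e-06), Tns2 (-1.45, SE 0.11, limma adjusted p = 1.92e-06) and Pxn (-1.35, SE 0.12, limma adjusted p = 3.73e-06) were lower, and the median was 0.13. The 5 called genes (38.5%, beside 50.8% of all genes) became 9 with quantile normalization (69.2%, beside 50.2%) and 10 with equal read totals (76.9%, beside 66.7%), again from below to above all genes. With equal read totals Lims1 was 1.95, Tns1 -0.76, Tns2 -0.75 and Pxn -0.65, and with quantile normalization Tns1 and Pxn were both -0.88.

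**Figure D4:**
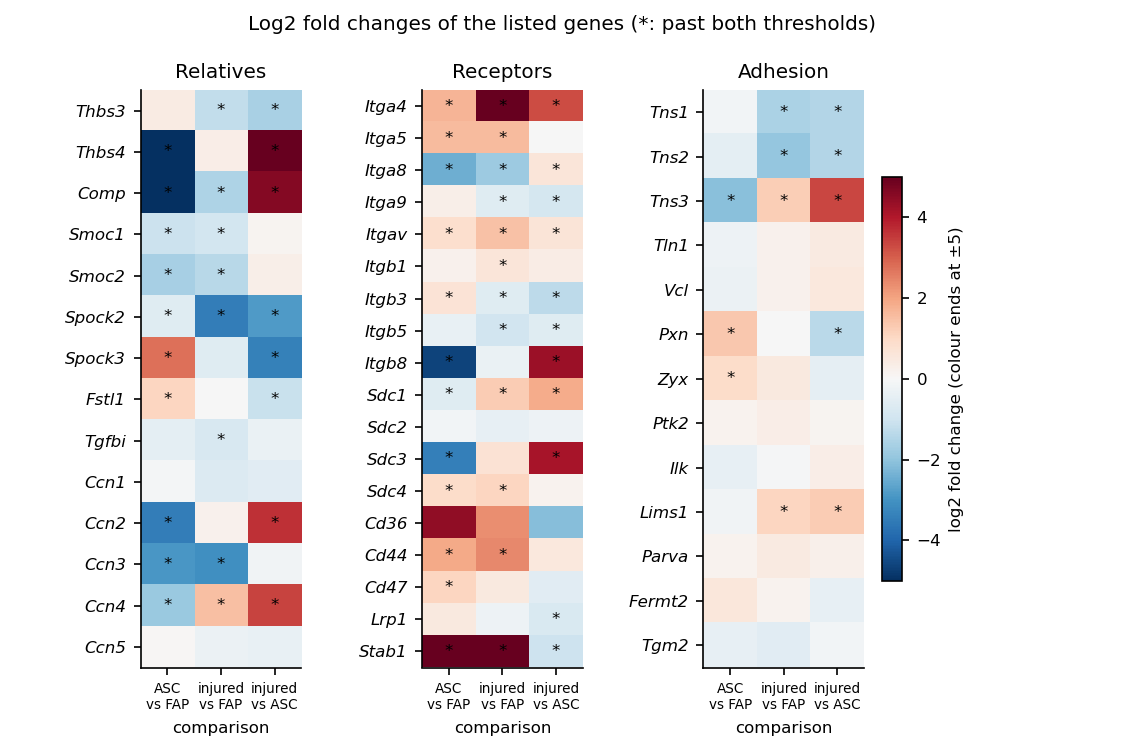
Log2 fold change as colour (red higher, blue lower, ending at 5 in either direction) for each tested relative, receptor and adhesion gene (vertical axis) in the 3 comparisons (horizontal axis), with a star for called genes. Thbs4 goes from -7.16 in ASCs against FAPs to 7.51 in injured FAPs against ASCs, and the colours of Stab1 and Itga4 against FAPs depend on the 1 added to values listed at 0.

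For 8 of the members, Sparcl1 not included, the 2 genes with the most similar profile were found among the 10592 genes whose mean was 100 or more. The measure was the root mean square difference of the centred log2 values over the 8 libraries, given in parentheses, where 0 means the same profile. For Fn1 they were Egfr (0.118) and Hspb8 (0.132), and for Sparc Antxr1 (0.0582) and Dpp7 (0.0866). Tnxb was closest to Prrg3 (0.076) and Scara3 (0.0848), and Postn to Nop58 (0.201) and Sox11 (0.244). Thbs1 was closest to Mrpl12 (0.116) and Prdx3 (0.126), and Thbs2 to Rnf114 (0.0531) and 1810055G02Rik (0.0628). Of these 8, the 2 members with the widest range had the least similar neighbours, Col8a1 (0.593) and Esm1 (0.641) for Tnc and Ltbp2 (0.812) and Kcnj15 (1.06) for Spp1. Their own profiles had a root mean square of 3.14 for Spp1 and of 2.998 for Tnc, against 0.326 for Thbs2.

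The CD31+CD45+ library, a single library without replicates, lay below all 8 others for 6 members. Its values were 20895 for Fn1, 1439 for Tnxb, 1180.2 for Postn, 72709.8 for Sparc, 4892 for Thbs1 and 430.0 for Thbs2. Tnc, at 614, lay above the ASC libraries and below those of muscle stroma. The members made up 0.769% of its reads, and Sparc (46.5%) and Sparcl1 (46.0%) supplied most of their summed level per kb.

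Markers of 6 further cell types were summed beside the members. Skeletal muscle fibre genes (7) gave 157, 109 and 144 in ASCs, 742 and 865 in FAPs, 253, 249 and 201 in injured FAPs and 2913 in the CD31+CD45+ library. Satellite cell genes (4) gave 5.27, 5.66 and 2.51 in ASCs, 65.6 and 128 in FAPs, 50.2, 38.7 and 35.8 in injured FAPs and 491 in the CD31+CD45+ library. For Schwann cell genes (5) the sums were 1207, 913 and 836 in ASCs, 1053 and 1824 in FAPs, 670.1, 398 and 673 in injured FAPs and 11565 in the CD31+CD45+ library. Adipocyte genes (4) were at 113, 96.3 and 109 in ASCs, 15.2 and 21.6 in FAPs and 6.28, 6.97 and 1.53 in injured FAPs. Mesothelial genes (4) were at 349, 56.6 and 128 in ASCs, 49.4 and 63.0 in FAPs and 72.2, 61.2 and 81.6 in injured FAPs. Neutrophil genes (6) summed to 11.9, 2.27 and 2.51 in ASCs, 6.66 and 11.3 in FAPs, 18.05, 108 and 19.8 in injured FAPs and 745 in the CD31+CD45+ library. Their part in the members' values was not tested.

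**Figure D5:**
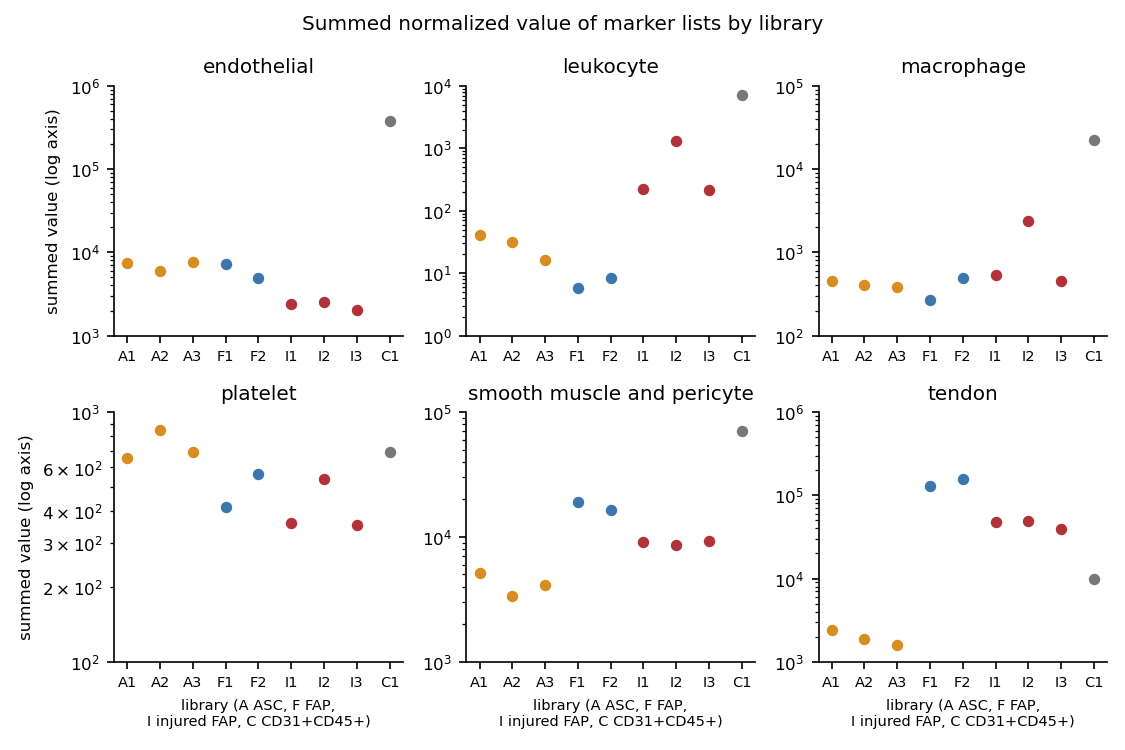
Summed normalized value (vertical axis, log scale) of 6 lists of cell type markers, with a point for each library (horizontal axis) coloured by group. FAPs have leukocyte sums of 5.71 and 8.47, injured FAPs 213.6 to 1336, and the tendon sum is highest in FAPs at 130993 and 159032.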

How the data were processed

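RNA of 9 libraries was measured by bulk sequencing. For each gene the authors deposited a signal value in every library. The table's 2 empty columns were not used here. The submitters' processing notes name HISAT2, FastQC, Subread and DESeq2 and the build mm10. In every library 100% of the values were whole reads (tolerance 0.01 reads) divided by 1 factor, so reads were recovered, and a value of 3 reads stood as the floor. Strand setting and treatment of multi-mapping reads were not given in the sources used here, so overlapping neighbours are uncertain. Genes with a mean of at least 10 over 8 libraries (13601) were fitted by limma 3.58.1 in R 4.3.3 on log2 values with a pseudocount of 1, with a mean per group for 3 groups and 5 residual degrees of freedom. P-values were adjusted by Benjamini-Hochberg, with thresholds of 0.05 and a log2 fold change of 0.58. The CD31+CD45+ library was left out of the fit because it has no replicate.

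Lengths and positions came from GENCODE M21 (GRCm38, merged exons). The 9 members were named in every comparison. Of each list (relatives, receptors, adhesion genes), the called genes with the 3 largest rises and the 3 largest falls were named. The 2 genes most like a member were taken, and given for 8 of the 9, by the lowest root mean square difference. Cell type markers were used as whole lists. The members and lists were chosen with earlier results of these data known, and the promoter motifs after the sequences were seen. The alternatives were pseudocounts of 0.5 and 8, no filter, a mean of at least 50, quantile normalization, a common 75th percentile, unadjusted p, 2 groups only, a replicate block, each library left out, edgeR 4.0.16 and DESeq2 1.42.0 on the recovered reads. Scaling to equal read totals, and counts without genes that passed the filter through 1 group alone, were added after seeing the data. The steps were tested on simulated data.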

Additional observations from a re-analysis of the deposited data

Results flagged for a closer look

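The CD31+CD45+ library entered no comparison, and 2 of the 9 genes had a higher value in it than in both FAP libraries. Sparcl1 was 55754 there, from 35525 reads, against 25339 and 25628 in FAPs, and it also lay above every other library. Spp1 was 114.6 there, from 73 reads, against 56.1 and 75.3 in FAPs, and it lay below every injured FAP library. The library has no replicate, so its spread is unknown and neither difference was tested.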

How the results depend on the processing

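Each of the 27 member values (9 genes in 3 comparisons) was recomputed under 20 other settings, which gave 540 values. Of these, 514 kept their direction and their side of the threshold, 10 lost the call, 3 gained it and 13 changed sign, and of the latter 2 belonged to called values. Under every setting 17 of the 27 values were kept, 16 of them called. With quantile normalization the sign changed in ASCs against FAPs for Tnxb (-0.0654), Sparc (-0.0519) and Thbs1 (-0.57), in injured FAPs against FAPs for Fn1 (0.43), and in injured FAPs against ASCs for Postn (0.28) and Thbs2 (0.0862). With a common 75th percentile it changed for Thbs1 in ASCs against FAPs (-0.0609). With equal read totals it changed in ASCs against FAPs for Tnxb (-0.0168) and Thbs1 (-0.42), in injured FAPs against FAPs for Fn1 (0.0586) and in injured FAPs against ASCs for Thbs2 (0.14). Leaving out 1 library at a time moved Thbs1 in ASCs against FAPs between -0.16 and 0.45 and Fn1 in injured FAPs against FAPs between -0.16 and 0.0171. The cause was not tested. The members called ranged from 5 to 7 in ASCs against FAPs, 6 to 7 in injured FAPs against FAPs and 6 to 8 in injured FAPs against ASCs over the settings that kept every library. With 1 library left out they ranged from 6 to 8, 7 to 7 and 8 to 9, and the genes called from 5653 to 6683, 6323 to 7358 and 6582 to 7190. With a replicate block 7, 7 and 8 members and 6287, 7046 and 6861 genes were called, although libraries with the same number were not correlated (deviations from group means between ASCs and injured FAPs at 0.00381, -0.0027 and 0.0122). Equal read totals called 1592 genes higher and 6317 lower in ASCs against FAPs (20.1% higher, where the deposited scaling gave 49.6%), and 7378 higher and 1692 lower in injured FAPs against ASCs (81.4%, where it gave 49.3%). A common 75th percentile gave 2452 higher and 4142 lower in ASCs against FAPs (37.2%).

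With 2 FAP libraries the spread within that group is poorly known, and leaving out either leaves a lone library that is assumed to vary like the other groups. Replicates differed by more than counting error (chi-square per gene 10.9 to 68.0). Low counts limit Spp1 in ASCs (2 to 27 reads). Tissue and cell type cannot be told apart between ASCs and FAPs.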
